A study of Mus musculus with 10 samples.

Results

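Fibroblasts and adipocyte precursors (APs) are told from other cells of fat by the proteins on their surface, and the levels of 10 genes for such proteins were followed in cultured mouse APs with and without interleukin-4 (IL-4). The genes were Pdgfra, Pdgfrb, Ly6a, Cd34, Dpp4, Pi16, Cd55, Dlk1, Icam1 and Thy1, matched in the files by symbol. They are 10 of the 18384 genes listed in at least 1 mRNA-seq library, and each of them was read in every library. The libraries came from 3 control cultures, replicates 1 to 3, and 3 cultures incubated with the type 2 cytokine IL-4, replicates 4 to 6, all harvested on day 4. All 6 cultures were APs of C57BL/6J mice, isolated from subcutaneous white adipose tissue by depleting cells that carried CD45 or CD31 and then selecting cells that carried SCA-1, and grown in medium with fetal bovine serum. IL-4 was added a day after seeding, and the control cultures received none. SCA-1 is the protein of Ly6a, so 1 of the 10 genes had been used to obtain the cells of both groups before culture. The number of animals behind each culture is not given in the sources used here, and p-values measure the spread between these cultures, which may be technical.

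APs are fibroblast-like cells of the fat stroma that divide, lay down matrix and can become fat cells. They carry PDGF receptor alpha, SCA-1, CD34 and the GPI-anchored protein THY1, and lack the markers of blood and endothelial cells. In mouse subcutaneous fat, cells with DPP4, PI16 and CD55 lie in the interstitium between the fat lobules and are known as interstitial progenitors, whereas cells with ICAM1 lie nearer to fat cells and are known as committed preadipocytes. DLK1, also called PREF-1, marks preadipocytes and its shed form holds back fat cell formation. IL-4 acts through its receptor and the transcription factor STAT6.

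The libraries held between 28526782 and 29057787 expected counts, and all 10 genes were among the 14009 that passed the filter on low counts. Groups were compared by the quasi-likelihood test of edgeR, and p-values were adjusted by the Benjamini-Hochberg method across these 14009 genes. Levels are given as FPKM, fragments scaled by transcript length and by the library's total, which can be compared between genes. Fold changes come from counts scaled with TMM, and a fold change is called at an adjusted p under 0.05. FPKM are scaled to library totals instead, and ratios of FPKM lie below the fitted fold changes of the same gene, since the TMM factors were 1.05 to 1.07 in control and 0.932 to 0.961 in IL-4 libraries. The 10 genes with most reads held 9.14% to 9.59% of a control library and 13.8% to 15.5% of an IL-4 library. IL-4 replicate 6 deviated most from the mean of its group (root mean square 0.209 on the log2 scale, against 0.0973 to 0.141 in the other libraries). Control replicate 3, at 0.136, stood less clearly apart from control replicates 1 and 2, at 0.0973 and 0.120. Across 12244 genes, the deviations of control replicate 3 and IL-4 replicate 6 ran together (r = 0.59, a description across genes of 2 libraries, with no test). Those of control replicate 2 also ran with IL-4 replicates 5 and 4 (r = 0.48 and 0.36). Deviations from a mean of 3 libraries are linked to each other, since they sum to 0.

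The transcript levels of most of the surface markers shifted with IL-4, and their proteins were not measured in these libraries. Pi16, Cd34 and Cd55 rose by 16.3-fold, 10.2-fold and 8.80-fold, Ly6a rose by 2.29-fold and Pdgfra by 1.46-fold. Pdgfrb, Icam1 and Dlk1 fell, to 0.634, 0.720 and 0.630 of the control level. Dpp4 and Thy1 did not pass the test. Thus 5 of the 10 genes were called higher, against 19.0% of all tested genes, and 3 were called lower, against 18.4%. In either direction 8 were called, against 37.4% of all tested genes, and 4 were called beyond 2-fold, against 11.0%. These 4, Pi16, Cd34, Cd55 and Ly6a, were all higher (5.77% of all tested genes were called beyond 2-fold higher), and none was lower by as much (5.26%). Since the genes were not drawn at random, these shares are a description. Normalized counts did not overlap between the groups for any of the 10 genes, which was also true of 50.4% of all tested genes. The median log2 fold change was 0.51 over the 10 genes and 0.00 over all tested genes.

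**Figure D1:**
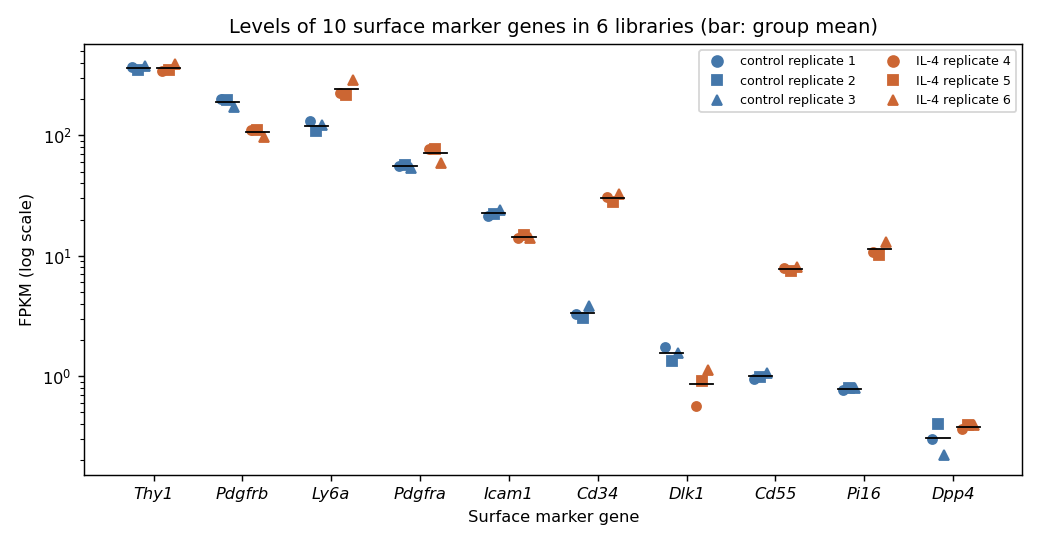
FPKM on a log scale for the 10 surface marker genes, ordered by their mean in control cultures, with 1 point per library, blue for control and orange for IL-4, a symbol for each replicate, and a black bar at the group mean. Cd34, Cd55 and Pi16 in IL-4 cultures lie far above all control cultures, Pdgfrb and Icam1 lie below them, and the groups overlap for Thy1 and Dpp4.

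The 10 genes differed widely in level. In control cultures, mean FPKM ran in the order Thy1, Pdgfrb, Ly6a, Pdgfra, Icam1, Cd34, Dlk1, Cd55, Pi16 and Dpp4, from 366 ± 12.4 for Thy1 to 0.307 ± 0.0902 for Dpp4 (SD, n = 3). In IL-4 cultures the order was Thy1, Ly6a, Pdgfrb, Pdgfra, Cd34, Icam1, Pi16, Cd55, Dlk1 and Dpp4, from 362 ± 29.8 for Thy1 to 0.380 ± 0.0173 for Dpp4. No neighbours in either order overlapped across the 3 libraries of the group. Ly6a thus stood below Pdgfrb in each control culture and above it in each IL-4 culture, and Cd34 changed places with Icam1 in the same way. The 10 genes summed to 743 to 785 FPKM in control cultures and 817 to 912 in IL-4 cultures. Thy1 held the largest share of that sum, 47.1% to 49.8% in control cultures and 41.5% to 43.4% in IL-4 cultures. The share of Pdgfrb went from 22.9% to 26.5% in control cultures to 10.6% to 13.7% in IL-4 cultures, and that of Ly6a from 14.5% to 16.7% to 26.6% to 31.9%.

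The 2 PDGF receptors, which bind platelet-derived growth factors and signal as tyrosine kinases, moved in opposite directions. Pdgfra (chromosome 5, 75152292 to 75198215, plus strand, GRCm38) marks fibroblasts and APs in fat. Its level was 55.4, 57.2 and 53.4 FPKM in control replicates 1, 2 and 3 and 77.4, 77.3 and 59.5 FPKM in IL-4 replicates 4, 5 and 6. All IL-4 cultures lay above all control cultures, with IL-4 replicate 6 close to them. The fitted log2 fold change was 0.54 with an SE of 0.11 (edgeR, adjusted p = 0.00655), a 1.46-fold rise with a 95% confidence interval of 1.21 to 1.75. Without IL-4 replicate 6 the log2 fold change was 0.68.

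Pdgfrb is carried by fibroblasts and also by pericytes and smooth muscle cells of vessel walls. It stood at 199.95, 196.7 and 172.9 FPKM in the control cultures and at 112.0, 111.5 and 96.4 FPKM in the IL-4 cultures, with no overlap and with the lowest value of each group in control replicate 3 and IL-4 replicate 6. This was a log2 fold change of -0.66 with an SE of 0.10 (edgeR, adjusted p = 0.000989), which leaves 0.634 of the control level (95% confidence interval 0.544 to 0.739). It remained called without any one library and without control replicate 3 and IL-4 replicate 6 together, where the log2 fold change was -0.65.

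The ratio of Pdgfra to Pdgfrb within a library does not depend on how libraries are scaled. It was 0.277, 0.291 and 0.309 in control replicates 1 to 3 and 0.691, 0.693 and 0.618 in IL-4 replicates 4 to 6. Every IL-4 culture thus had more Pdgfra per Pdgfrb than every control culture, although Pdgfrb was the more abundant receptor transcript in all 6. On the log2 scale the mean ratio was -1.78 ± 0.0786 in control and -0.59 ± 0.0951 in IL-4 cultures (SD, n = 3), a difference of 1.19 (two-sided exact permutation test, p = 0.1, the smallest that 3 against 3 allows, and 0.1 after Benjamini-Hochberg adjustment over 2 ratios).

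Of the genes that mark interstitial progenitors, Pi16 and Cd55 rose strongly, whereas Dpp4, the gene that names these cells, stayed low and did not pass the test. Pi16 (chromosome 17, 29317680 to 29330593, plus strand) encodes a CAP-family protein found on adventitial and interstitial fibroblasts. It was read at 0.76, 0.80 and 0.80 FPKM in control replicates 1 to 3, from 47, 50 and 50 counts. In IL-4 replicates 4 to 6 it was read at 10.8, 10.2 and 13.1 FPKM, from 682, 646 and 829 counts. The groups lay far apart, and the spread within control cultures was small. The log2 fold change was 4.02 with an SE of 0.12 (edgeR, adjusted p = 2.62e-07), a 16.3-fold rise (95% confidence interval 13.4 to 19.8) and the 105th largest among the 14009 tested genes.

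Cd55 (chromosome 1, 130439027 to 130462744, minus strand) encodes decay-accelerating factor, a GPI-anchored protein that breaks up the complement convertases on the cell's own surface. It stood at 0.950, 0.990 and 1.06 FPKM in control cultures and at 7.92, 7.45 and 8.10 FPKM in IL-4 cultures. Replicates of each group lay close together and the groups did not overlap. Cd55 had a log2 fold change of 3.14 with an SE of 0.09 (edgeR, adjusted p = 2.01e-07), an 8.80-fold rise (95% confidence interval 7.62 to 10.2).

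Dpp4 (chromosome 2, 62330073 to 62412231, minus strand) encodes CD26, a peptidase of the cell membrane. It had the lowest level of the 10 genes, at 0.300, 0.400 and 0.220 FPKM in control cultures (45, 60 and 33 counts) and 0.360, 0.390 and 0.390 FPKM in IL-4 cultures (54, 59 and 59 counts). Control replicate 2 lay above all IL-4 cultures in FPKM and the other control cultures lay below them. The log2 fold change was 0.47 with an SE of 0.23 (edgeR, adjusted p = 0.145), and the 95% confidence interval of the fold change ran from 0.964 to 1.99. Without control replicate 2 it was 0.71 and passed (edgeR, adjusted p = 0.0463).

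Cd34 (chromosome 1, 194938819 to 194961279, plus strand) encodes a sialomucin of APs, blood progenitors and vessel endothelium that can serve as a ligand of L-selectin. It stood at 3.28, 3.03 and 3.80 FPKM in control replicates 1 to 3 and at 30.6, 27.9 and 32.3 FPKM in IL-4 replicates 4 to 6. The lowest IL-4 culture was far above the highest control culture. Cd34 had a log2 fold change of 3.35 with an SE of 0.10 (edgeR, adjusted p = 2.01e-07), a 10.2-fold rise (95% confidence interval 8.73 to 11.9). Of the 8 endothelial markers examined, 2 were higher and 3 lower with IL-4. Their summed level was 14.3 to 14.98 FPKM in control cultures and 15.1 to 17.3 FPKM in IL-4 cultures. Within that sum the means moved in opposite directions. Vwf rose from 0.80 to 5.97 FPKM and Tek from 2.92 to 4.56 FPKM. Cdh5 fell from 3.38 to 0.987 FPKM, Emcn from 1.61 to 0.510 FPKM and Tie1 from 0.70 to 0.277 FPKM. The part of endothelial RNA in the rise of Cd34 was not tested.

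Ly6a (chromosome 15, 74994877 to 74998031, minus strand) encodes SCA-1, the GPI-anchored protein by which the cells had been selected. It was among the abundant transcripts of both groups, at 131.3, 108.1 and 122.1 FPKM in control cultures and 226.1, 217.0 and 291.1 FPKM in IL-4 cultures. All IL-4 cultures lay above all control cultures, and IL-4 replicate 6 was the highest. For Ly6a the log2 fold change was 1.20 with an SE of 0.11 (edgeR, adjusted p = 0.000104), a 2.29-fold rise (95% confidence interval 1.91 to 2.76). Ly6a lies in a cluster of similar genes. Its expected counts lay within 0.02 of a whole number in every library. How reads that match several genes of the cluster were divided was not tested here.

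Thy1 (chromosome 9, 44043384 to 44048579, plus strand) encodes CD90, a GPI-anchored glycoprotein of fibroblasts and other mesenchymal cells, and was the most abundant of the 10 transcripts. It stood at 370.0, 352.3 and 376.4 FPKM in control cultures and at 340.4, 348.9 and 395.8 FPKM in IL-4 cultures, with the groups overlapping. The log2 fold change was 0.16 with an SE of 0.07 (edgeR, adjusted p = 0.106), and the 95% confidence interval of the fold change ran from 1.001 to 1.24. With libraries scaled to their totals the log2 fold change was -0.02 (edgeR, adjusted p = 0.878), and without control replicate 3 and IL-4 replicate 6 together it was 0.11 and passed (edgeR, adjusted p = 0.0250). Thy1 therefore had no direction that held under each scaling.

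Dlk1 and Icam1, which mark preadipocytes, were both lower with IL-4. Dlk1 (chromosome 12, 109452823 to 109463336, plus strand) is an imprinted gene whose membrane protein carries EGF-like repeats. It was low, at 1.76, 1.34 and 1.56 FPKM in control cultures and 0.560, 0.910 and 1.13 FPKM in IL-4 cultures. The groups did not overlap, but the IL-4 cultures were spread widely. For Dlk1 the log2 fold change was -0.67 with an SE of 0.22 (edgeR, adjusted p = 0.0492), or 0.630 of the control level (95% confidence interval 0.439 to 0.903). The call was lost without control replicate 1, 2 or 3 and without IL-4 replicate 4 or 5, and the log2 fold change without IL-4 replicate 4, the lowest library, was -0.43 (edgeR, adjusted p = 0.0835). The biological coefficient of variation of Dlk1 was 0.181, against a median of 0.0940 over the 500 tested genes nearest to it in abundance, and it was the most variable of the 10 genes.

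Icam1 (chromosome 9, 21015985 to 21028817, plus strand) encodes an adhesion protein that leukocytes bind through beta-2 integrins, and macrophages and endothelium carry it too. It stood at 21.3, 22.3 and 23.8 FPKM in control replicates 1 to 3 and at 14.1, 14.9 and 14.0 FPKM in IL-4 replicates 4 to 6. Each IL-4 culture was below each control culture, with a narrow spread in both groups. The log2 fold change was -0.47 with an SE of 0.07 (edgeR, adjusted p = 0.000874), or 0.720 of the control level (95% confidence interval 0.646 to 0.802).

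The ratio of Dpp4 to Icam1 sets a marker of interstitial progenitors against a marker of committed preadipocytes. On the log2 scale of FPKM it was -6.24 ± 0.484 in control cultures and -5.24 ± 0.0624 in IL-4 cultures (SD, n = 3), higher by 0.999 with IL-4 (two-sided exact permutation test, p = 0.1, the smallest possible, and 0.1 after Benjamini-Hochberg adjustment). All IL-4 cultures lay above all control cultures. Control replicate 3 had the lowest ratio, and without it the difference was 0.74.

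**Figure D2:**
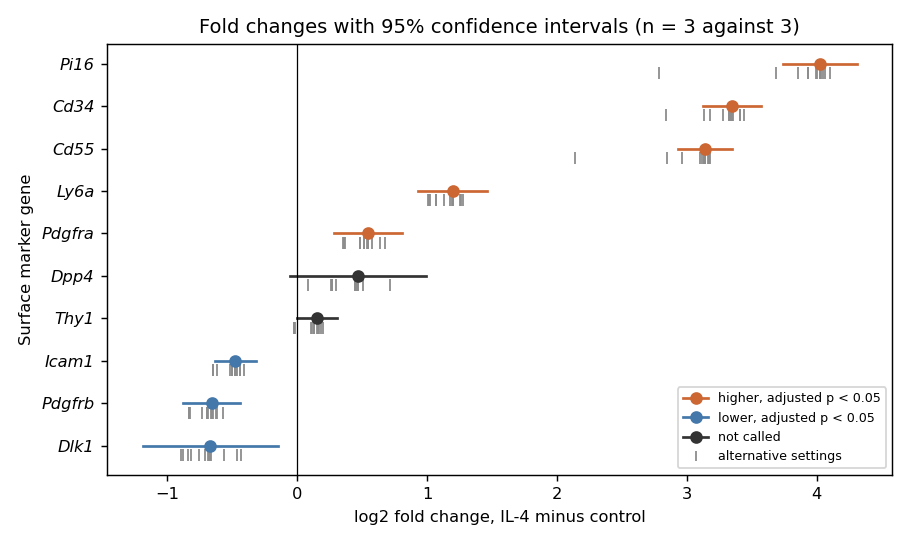
Log2 fold change of each surface marker, IL-4 minus control, with its 95% confidence interval (points and lines, n = 3 against 3, edgeR) and the values under alternative settings (grey ticks). Points are orange where called higher, blue where called lower and black where not called. Pi16, Cd34 and Cd55 lie near 4.02, 3.35 and 3.14, the interval of Dpp4 crosses 0, and the ticks of Thy1 fall on both sides of 0.

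**Figure D3:**
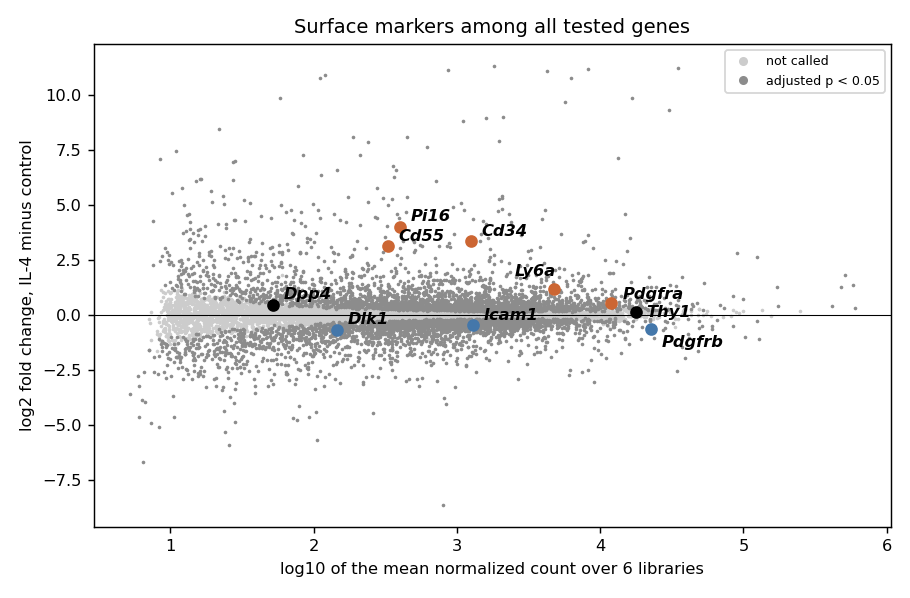
Log2 fold change against the log10 mean normalized count of all 14009 tested genes (small grey points, darker where the adjusted p was under 0.05), with the 10 surface markers named. Pi16, Cd34 and Cd55 lie above most genes of like abundance. Thy1 lies near the line at 0, and Dpp4 lies at 0.47 and was not called.

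Promoter sequence was examined where it was available, whether or not the gene was called. Of the 10 genes, 7 have an entry in the RefSeq promoter table (GRCm38.p6), and Ly6a, Pdgfrb and Thy1 have none there. The 250 bases before each start were searched on both strands for the STAT-type letters TTCNNNGAA, for the same with 1 more base between the ends, and for the NF-kappaB-type letters GGNNNTTCC. These occur in 7.02%, 5.85% and 15.7% of the 32851 windows of that length in the table. Only the windows of Icam1 and Cd55 held a match. The matched letters are shown in capitals with their neighbours, 5′ to 3′ on the strand of the gene.
Icam1, TTCNNNGAA, 42 to 34 bases before the start, chr9:21015888-21015916, plus strand: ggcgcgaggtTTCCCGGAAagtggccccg
Icam1, GGNNNTTCC, 84 to 76 bases before the start, chr9:21015846-21015874, plus strand: gtctccacccGGAAATACCgaagccctcg
Icam1, GGNNNTTCC, 153 to 145 bases before the start, chr9:21015777-21015805, plus strand: acttcagtttGGAAATTCCtagatcgcag
Cd55, GGNNNTTCC, 60 to 52 bases before the start, chr1:130462786-130462814, minus strand: cattaatgagGGAACGCCCtcttgcacgc
The Icam1 match nearest to the start and the one farthest from it read as a match on both strands, and the other Icam1 match and that of Cd55 on the opposite strand. The Icam1 window held 15 CG dinucleotides and a GC content of 65.2%, against medians of 6 and 52.4% over all windows. The windows of Pi16 and Cd34, the genes with the largest rises, held none of the 3 sets of letters, nor did those of Pdgfra, Dpp4 and Dlk1. The Pi16 and Cd34 windows overlap exons of the same gene in GENCODE, and the RefSeq start of Pi16 (29318882) lies inside the GENCODE gene span given above, so the sequence before the GENCODE start of Pi16 was not searched. A match is a description of the sequence, and nothing was measured here on binding.

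The genes were chosen as surface markers, so the place of their proteins in the cell follows from that choice and is a description. In the cellular component terms given in the files, 9 of the 10 carry a term, and 7 of these, Pdgfra, Ly6a, Cd34, Cd55, Dlk1, Icam1 and Thy1, are annotated to the external side of the plasma membrane, as are 1.32% of the 11495 tested genes with a term. The term membrane raft is given to Cd55, Icam1 and Thy1, of which the first rose, the second fell and the third was not called. Ly6a and Cd55, both of which rose, are annotated as anchored components of the membrane. Thy1, which was not called, lacks this term here although its protein is also GPI-anchored. Pi16, Dlk1 and Icam1 carry the term extracellular space. Pi16 carries none of the other terms examined, and Dpp4 carries no term.

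Other genes of the same cell classes changed in both directions. Of 10 further genes of interstitial progenitors, 9 were tested, 4 were higher and 1 lower, with a median log2 fold change of 0.41. Without control replicate 2 the median was 0.63, with limma on log2(FPKM + 1) and log2(FPKM + 0.1) it was 0.04 and 0.15, and 2 genes were called lower without IL-4 replicate 6. Emilin2, an elastic fibre glycoprotein, rose from 43.2 to 59.1 FPKM (log2 fold change 0.63), and Wnt2, a Wnt ligand, rose from 0.177 to 3.38 FPKM (log2 fold change 4.42). Dact2 rose by 0.81 and Limch1 fell by 1.14 on the log2 scale. The gene with the highest level in this list, Anxa3, stood at 94.4 ± 8.51 FPKM in control and 73.2 ± 10.6 FPKM in IL-4 cultures (SD, n = 3) and was not called (edgeR, adjusted p = 0.176).

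Of 12 further genes of committed preadipocytes, 7 were higher and 5 lower, with a median log2 fold change of 0.57. Lpl, the lipase that releases fatty acids from lipoproteins, rose from 160 to 469 FPKM (log2 fold change 1.72), and the chemokine gene Cxcl12 from 278 to 417 FPKM (0.67). Apoe, an apolipoprotein that macrophages also make, fell from 534 to 120 FPKM (-1.98), and the basement membrane collagen Col4a1 from 178 to 77.6 FPKM (-1.03). Icam1 was thus lower, as were 5 of these 12 genes, while the other 7 were higher. In the list of CD142+ regulatory precursors, 4 of 8 genes were higher and 3 lower, and F3, which encodes CD142, was not called (log2 fold change 0.10).

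Among 16 other surface markers of stromal cells, 6 were higher and 2 lower, with a median log2 fold change of 0.10, which was -0.08 with libraries scaled to their totals, 0.22 without IL-4 replicate 6 and 0.18 without control replicate 3 and IL-4 replicate 6 together. The tetraspanin gene Cd81 rose from 246 to 401 FPKM (log2 fold change 0.88), and Vcam1, an adhesion protein of the same superfamily as Icam1, rose from 52.0 to 104 FPKM (1.17). Cd248 and Pdpn rose by 0.52 and 0.45 on the log2 scale. Of 12 genes of fibroblast matrix and cytoskeleton, 9 were higher and 2 lower, against 4 higher with limma on FPKM and 1 lower without control replicate 1 or 2. Col3a1 rose from 2181 to 5001 FPKM (log2 fold change 1.37), and Col1a1 from 3307 to 3690 FPKM (0.33). The list summed to 14104 to 14586 FPKM in control and 20220 to 22364 FPKM in IL-4 cultures, higher with IL-4 in every culture, as was the sum of the 10 surface markers.

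**Figure D4:**
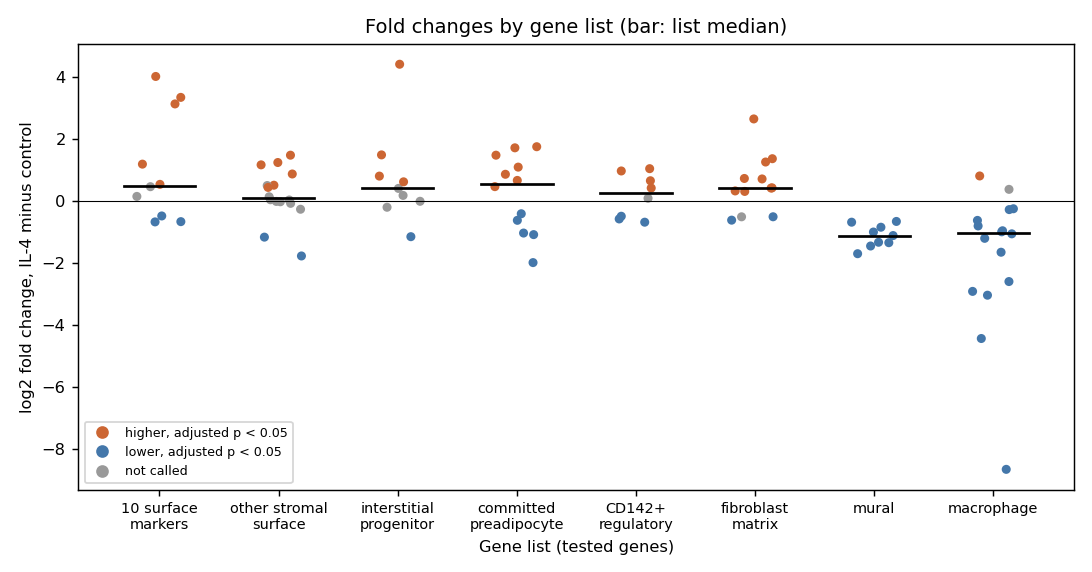
Log2 fold change, IL-4 minus control, of each tested gene in 8 lists, with orange points called higher, blue points called lower, grey points not called and a black bar at the list median. The surface markers and the 4 precursor and stromal lists hold points on both sides of 0, whereas all 9 tested mural genes and 14 of 16 macrophage genes were called lower.

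Transcripts that mark other cell types were present and differed between the groups. Of 16 macrophage markers, 14 were lower, Mrc1 alone was higher and Cd68 was not called, and the list summed to 4531 to 5908 FPKM in control and 1806 to 2413 FPKM in IL-4 cultures, with the highest sum of each group in control replicate 3 and IL-4 replicate 6. None of the 16 was at 0 in the mean of either group, but Cx3cr1 and Aif1 were near 0 in IL-4 cultures. Cx3cr1 fell from 15.99 to 0.0367 FPKM (log2 fold change -8.65), with 3 to 5 counts per IL-4 library. Aif1 fell from 9.12 to 0.37 FPKM (-4.43). Ptprc, which encodes CD45, stood at 18.3 FPKM in control and 8.22 FPKM in IL-4 cultures although cells with CD45 had been depleted. Of 10 pericyte and smooth muscle markers, 9 were tested and all 9 were lower, and the list summed to 1311 to 1400 FPKM in control and 420 to 504 FPKM in IL-4 cultures, most of it Acta2 and Tagln, which activated fibroblasts also express. Cd3e, Cd3d and Cd3g of the 10 lymphocyte markers were listed in no library, and Lep, Cidec and Retn of the 9 mature adipocyte genes likewise. Of 6 Schwann cell markers 4 were lower and 1 higher (sums of 15.5 to 16.4 and 7.50 to 8.44 FPKM). Of 8 mesothelial markers 4 were tested, 2 higher and 1 lower (sums of 9.16 to 10.8 and 11.6 to 13.8 FPKM). The untested markers Msln, Upk3b, Lrrn4 and Gpm6a were near 0, with group means of at most 0.17 FPKM. Most of the mesothelial sum was the keratin gene Krt19, at 6.37 FPKM in control and 9.61 FPKM in IL-4 cultures. In bulk samples, fewer cells of a type and less RNA per cell cannot be told apart, and the part of macrophage and mural RNA in the falls of Icam1 and Pdgfrb and in the other changes was not tested.

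**Figure D5:**
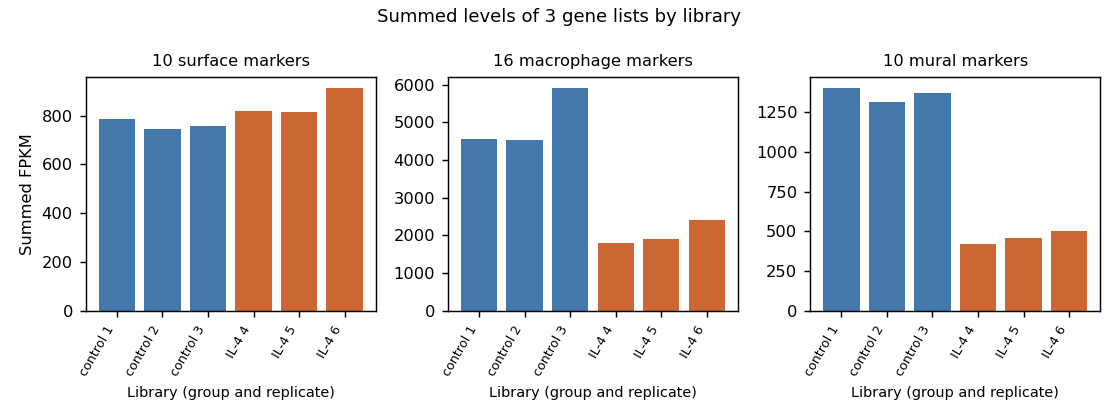
Summed FPKM per library (bars, from 0) of the 10 surface markers, 16 macrophage markers and 10 mural markers, that is pericyte and smooth muscle genes, with control cultures in blue and IL-4 cultures in orange. The surface marker sum is higher in every IL-4 culture than in every control culture, and the other 2 sums are lower, with the highest macrophage sum in control replicate 3.

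Transcripts of the ligands and binding partners of the surface proteins were also measured. Of 12 such genes 11 were tested, 3 were higher and 4 lower, with a median log2 fold change of -0.01 that took either sign as single libraries were left out. C3, the complement component whose convertase CD55 breaks up, rose from 8.69 to 97.4 FPKM (log2 fold change 3.66). Among the integrin subunits that bind ICAM1, Itgal fell most, from 1.27 to 0.0433 FPKM (-4.63), Itgam was lower (-0.27) and their shared partner Itgb2 was higher (0.52). Of the 2 subunits of an integrin for which THY1 is a ligand, Itgav was lower (-0.49) and Itgb3 higher, from 6.16 to 21.4 FPKM (1.97). Of the PDGF ligand genes, Pdgfa, Pdgfc and Pdgfd were not called and had log2 fold changes of 0.09, -0.01 and -0.20, and Pdgfb fell from 5.89 to 1.47 FPKM (-1.83). These 4 PDGF genes, Itgal and Itgb3 were named after their values were seen.

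The exons of Pdgfra, Cd34, Dpp4, Pi16, Cd55 and Icam1 overlap annotated genes on the opposite strand in GENCODE M21, and strand was not stated to be used in counting, so reads of these partners cannot be told apart from those of the members.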

How the data were processed

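Poly-A RNA of 3 control and 3 IL-4 AP cultures was sequenced on a BGISEQ platform. Per the labels and the study's methods, the authors filtered reads with SOAPnuke, named HISAT with mm10, and used Bowtie2 with RSEM on RefSeq transcripts for gene levels. The tool versions are not given in the sources used here. The deposited expected counts carry no normalization. The deposited FPKM had been divided by the authors by the length of the transcript and the size of the library. In all, 87.0% of the nonzero expected counts were whole, and a gene not listed in a library was taken as 0. The files also hold transcript lengths and gene annotation terms. A further 26 date-like symbols were replaced through RefSeq by Entrez number, and 1 row that named no gene (at most 0.000225% of a library's counts) was left out. The small RNA libraries of the series were not used here.

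After rounding, genes were kept by filterByExpr with a minimum count of 10 and a minimum total of 15. Counts were scaled with TMM and tested by quasi-likelihood in edgeR 4.0.16 under R 4.3.3 on the 3 control and 3 IL-4 libraries, with no covariate. TMM factors were 1.05 to 1.07 in control and 0.932 to 0.961 in IL-4 libraries, and the common biological coefficient of variation was 0.0939. Counting error is small at this depth except for genes of few counts, such as Dpp4. The test was tried on simulated data first. Alternatives were DESeq2 1.42.0, library totals, upper-quartile scaling, no filter, limma 3.58.1 on FPKM (log2 after adding 1 or 0.1), and each library left out in turn. Leaving out control replicate 3 and IL-4 replicate 6 together was added after the data had been seen. Ratios of 2 genes were compared with exact permutation tests. Gene positions are from GENCODE M21 and promoters from RefSeq, both on GRCm38, the assembly of mm10.

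The members and the gene lists were chosen with earlier results of these data known. All 10 members are named, and of each other list up to 4 called genes with the highest mean FPKM, defining markers near 0, and the exceptions marked in the text. Anxa3, F3, Ptprc, Mrc1, Cd68, Cx3cr1 and Aif1 were also named after their values were seen. Python 3.11.15, numpy 2.4.6, pandas 2.3.3 and matplotlib 3.10.9 were used for other work.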

Additional observations from a re-analysis of the deposited data

How the results depend on the processing

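Over 13 alternatives, Pi16, Cd34, Cd55, Ly6a, Pdgfra, Pdgfrb and Icam1 kept their direction and remained called. The number of surface markers called higher ranged from 5 to 6, that called lower from 2 to 3, and 4 were beyond 2-fold in each alternative. Dlk1 missed the threshold with upper-quartile scaling (log2 fold change -0.69, edgeR, adjusted p = 0.0538) and in 5 of the 6 fits with 1 library left out, in which its log2 fold change ranged from -0.88 to -0.43. Dpp4 ranged from 0.27 to 0.71 with 1 library left out. Thy1 had a log2 fold change of -0.0162 with library totals, -0.0206 with limma on log2(FPKM + 1) and -0.0206 with limma on log2(FPKM + 0.1), the reverse of the direction given above, with adjusted p of 0.878, 0.871 and 0.873. These 3 settings scale libraries to their totals alone, and shifted the median log2 fold change of all genes to -0.17, -0.13 and -0.17. With them 1704, 1735 and 1740 genes were called higher and 4963, 4707 and 4715 lower (25.6%, 26.9% and 27.0% higher), against 2663 and 2582 with TMM (50.8% higher). Beyond 2-fold, 701 genes were called with limma on log2(FPKM + 1), against 1546. With 1 library left out, the difference in the log2 ratio of Pdgfra to Pdgfrb ranged from 1.15 to 1.25 and that of Dpp4 to Icam1 from 0.74 to 1.22. No paired analysis was possible because the labels number the control cultures 1 to 3 and the IL-4 cultures 4 to 6, so the groups share no replicate number. Depth limits Dpp4 most, with 33 to 60 counts per library.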

Other observations

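Other Ly6 genes of the Ly6a cluster were also measured, together with Cd59a, which is not part of that cluster. Of 9 other Ly6 genes and Cd59a, 6 were tested, 3 were higher and 1, Cd59a, was lower. The median log2 fold change was 1.26, which was 0.19 with limma on log2(FPKM + 1) and 0.74 with limma on log2(FPKM + 0.1). Ly6c1, which encodes a surface protein of the Ly6 family, rose from 25.6 ± 1.49 to 78.2 ± 12.0 FPKM (SD, n = 3, log2 fold change 1.78, edgeR, adjusted p = 8.33e-06). Ly6h and Ly6k rose by 1.93 and 1.77 on the log2 scale from 0.233 and 0.267 FPKM. Ly6e, at 88.5 ± 8.24 and 90.2 ± 9.28 FPKM, was not called (log2 fold change 0.19, edgeR, adjusted p = 0.118). Cd59a, which encodes a GPI-anchored inhibitor of the terminal complement complex, fell from 17.4 to 7.29 FPKM (log2 fold change -1.08), while Cd55, which acts earlier in that pathway, rose. Whether the difference between Ly6a and Ly6e, or between Cd55 and Cd59a, exceeds the replicate spread was not tested.

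Single genes of the endothelial list went opposite ways. Vwf, the von Willebrand factor, rose from 0.80 to 5.97 FPKM (log2 fold change 3.08), and Tek from 2.92 to 4.56 FPKM (0.81). Cdh5, which encodes the endothelial cadherin, fell from 3.38 to 0.987 FPKM (-1.60), and Emcn from 1.61 to 0.510 FPKM (-1.49). Of 9 mature adipocyte genes 2 were tested, Pnpla2 was higher (0.29) and Lipe lower (-0.32), and with library totals 0 were higher. Of 10 lymphocyte markers 2 were tested, Cd4 was lower (-2.33), Cd8a was not called, and the list summed to 1.02 to 1.31 FPKM in control and 0.300 to 0.490 FPKM in IL-4 cultures.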
